A study of Mus musculus with 9 samples.

Results

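H2afy encodes macroH2A1, a histone variant, and 4 of its introns were quantified among the 22228 introns of 7016 genes in the authors' deposited table. The members were taken by name, as every intron of the table that carries the H2afy symbol, and are introns 2, 7, 9 and 10 in the authors' numbering. The gene itself was chosen from the 2 h ratios and adjusted p-values of introns 9 and 10, which overlap and had been seen to change after Clk inhibition, so those values are a description and no new test was made on them. The deposited values cover no other introns of H2afy.

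The cells were v6.5 mouse embryonic stem cells, a line grown on gelatinised flasks with leukaemia inhibitory factor. KH-CB19, which inhibits Clk kinases, was given in dimethyl sulfoxide (DMSO), and control cells got the same volume of DMSO without it. RNA was taken immediately (0 h) or 2 h later. Each of the 4 groups held 2 libraries, described as independent biological replicates, of polyadenylated RNA sequenced as strand-specific read pairs. The table gives 1 mean per group, so no SD between replicates stands beside any value, and an untreated library of the same line was not analysed here.

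MacroH2A proteins join a histone fold like that of H2A to a large globular macro domain through a linker, and are known for their enrichment on the inactive X chromosome and in silent chromatin. H2afy makes a pair of forms from mutually exclusive exons within the macro domain: macroH2A1.1 binds ADP-ribose through this domain, and macroH2A1.2 does not. Detained introns, the class this series describes, stay in polyadenylated nuclear RNA and are spliced out later than their neighbours. Clk kinases phosphorylate SR proteins, which help the spliceosome to recognise exons.

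The detained intron 9 lay directly downstream of the exon that is specific to macroH2A1.1, and the detained intron 10 contained that exon. On the mouse build mm9, intron 9 spans chr13:56185647-56189612 on the minus strand (3966 bases) and intron 10 spans chr13:56185647-56189796 (4150 bases). Both end at the same 3′ splice site, and intron 10 begins 184 bases further upstream. Intron 2 (chr13:56206357-56229637, 23281 bases) and intron 7 (chr13:56197003-56197484, 482 bases) overlap neither these introns nor each other. GENCODE release M21, which is on the build GRCm38, was compared by intron length and spacing: 3 of the 4 introns matched an annotated H2afy intron, with the same distances between them in both builds. Intron 9 matched intron 6 of H2afy-202, the protein-coding transcript of 369 codons, between the alternative exon of 91 bases and the shared exon of 90 bases. Intron 2 matched intron 2 of both protein-coding transcripts, between coding exons. Intron 7 matched the last intron of H2afy-204, a transcript annotated without coding sequence, and forms the first 482 bases of the introns of 6266 and 7781 bases that follow exon 5 in the coding transcripts.

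Intron 10 matched no annotated intron. Its upstream end lies 93 bases ahead of the 91-base exon, so this exon sits inside it, and 0 annotated H2afy exon borders fall at that end. In H2afy-201, the coding transcript of 372 codons that uses the alternative exon of 100 bases, introns 9 and 10 both lie within intron 6 of 5472 bases and cover 72.5% and 75.8% of it. Unspliced reads in intron 9 can thus come from transcripts of either macroH2A1 form, and the 2 sources cannot be told apart in these counts. The names macroH2A1.1 and macroH2A1.2 were given to the transcripts of 369 and 372 codons from general knowledge of the 2 proteins, as the annotation itself does not carry them. The alternative exons are shown because they decide which protein form is made. They are taken from the GENCODE transcripts, minus strand of GRCm38, at chr13:56088252-56088342 and chr13:56089758-56089857, with the bases that both share at their 3′ end in capitals.
macroH2A1.1 exon, 91 bases: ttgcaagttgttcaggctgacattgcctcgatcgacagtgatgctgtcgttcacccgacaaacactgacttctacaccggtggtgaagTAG
macroH2A1.2 exon, 100 bases: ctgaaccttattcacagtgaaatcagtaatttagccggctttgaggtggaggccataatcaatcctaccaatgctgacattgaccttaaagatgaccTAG

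The exons differ by 9 bases in length, which keeps the reading frame, and share 3 bases at their 3′ ends. Both are joined to the same downstream exon, whose 3′ splice site closes the detained introns. The last 236 bases of introns 9 and 10 are known here because H2afy-203, a transcript that GENCODE classes as an intron retention, begins inside the intron (chr13:56084286-56084521 of GRCm38). They are shown as the stretch that every transcript unspliced at this 3′ splice site would keep, with the closing AG in capitals.
end of introns 9 and 10: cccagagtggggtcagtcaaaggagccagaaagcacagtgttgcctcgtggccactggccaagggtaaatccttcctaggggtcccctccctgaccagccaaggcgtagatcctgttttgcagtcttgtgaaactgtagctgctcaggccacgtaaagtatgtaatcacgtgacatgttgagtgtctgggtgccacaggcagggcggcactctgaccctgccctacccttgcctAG

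For comparison, the last 30 bases ahead of the macroH2A1.2 exon are kept in H2afy-206, another annotated retention (chr13:56089858-56089887 of GRCm38). Spliceosomes read the pyrimidine tract in such a stretch together with the AG.
ahead of the shared exon, 30 bases: gcactctgaccctgccctacccttgcctAG
ahead of the macroH2A1.2 exon, 30 bases: ttatttcccacctcatgcttctcttttcAG

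Of the 28 bases before the AG, 21 (75.0%) were C or T at the detained introns' end and 24 (85.7%) ahead of the macroH2A1.2 exon. The longest unbroken run of C and T was 5 bases in the first stretch and 11 in the second. These are 2 single sites and the counts describe their letters only.

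**Figure D1:**
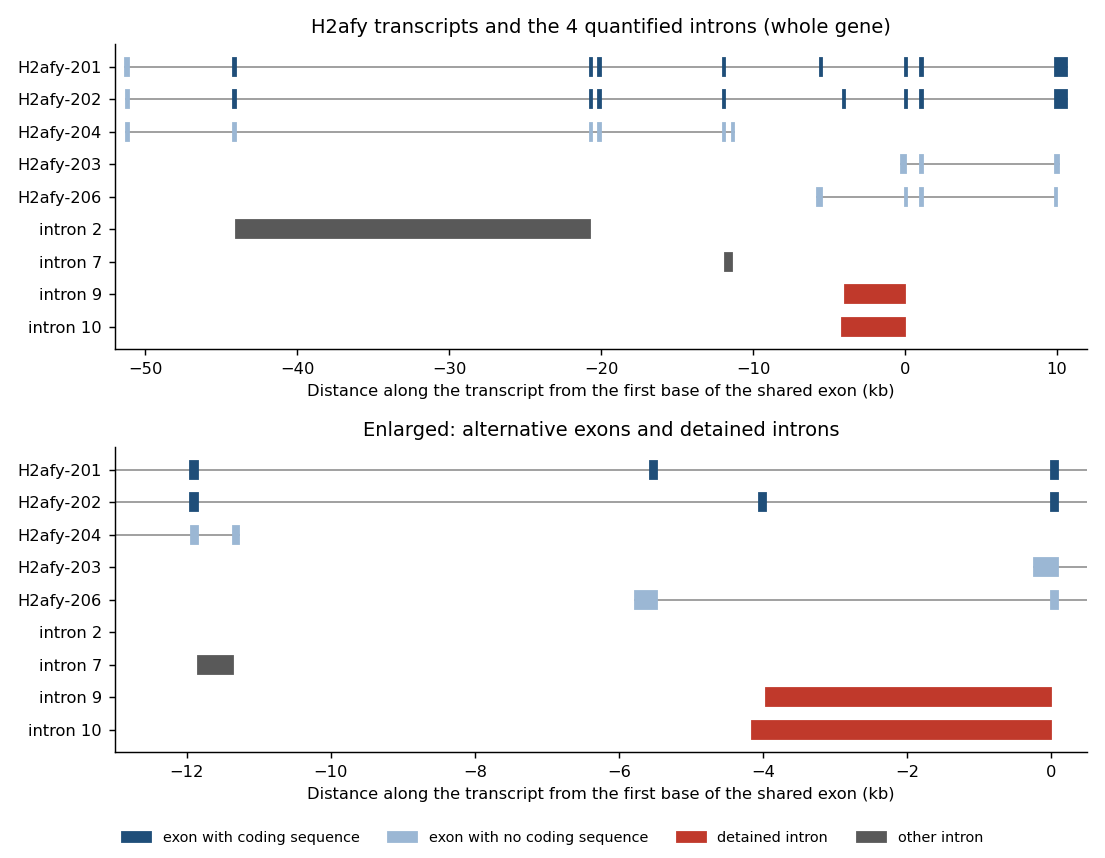
H2afy transcripts of GENCODE M21 and the 4 quantified introns, as distance along the transcript in kb from the first base of the 90-base exon shared by both macroH2A1 forms; the lower panel enlarges the alternative exons. Introns 9 and 10 (red) end together at 0 kb, and the 91-base exon of H2afy-202 lies just upstream of intron 9 and inside intron 10, while the 100-base exon of H2afy-201 lies outside both.

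At 0 h the 4 introns of H2afy fell into 3 kinds: 1 far below the authors' expected count, 1 near it, and the overlapping pair above it. The expected count is the authors' own, and the sources used here do not say how it was derived. Intron 2 had a mean of 13.5 observed reads against 197.5 expected in DMSO and 19.5 against 174.5 in KH-CB19, per the authors' deposited table. In the authors' deposited table this is a log2 ratio of −3.87 for DMSO (adjusted p = 1.63e-31) and −3.16 for KH-CB19 (adjusted p = 1.64e-22), or 14.6-fold and 8.95-fold fewer reads than expected. Such values are rare: 60 of 21568 introns had a lower ratio in DMSO, and 106 of 18740 in KH-CB19. Among 786 introns over 20 kb, a length limit set after the values were seen, 126 (16.0%) were below and 119 (15.1%) above expectation at adjusted p below 0.05 in DMSO.

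Intron 7 had 24.5 observed and 25.0 expected reads in DMSO in the authors' deposited table (log2 ratio −0.03, adjusted p = 1). In KH-CB19 it had 16.5 observed and 22.5 expected reads in the authors' deposited table (log2 ratio −0.45, adjusted p = 0.56). Neither group passed the 0.05 threshold for intron 7. The exon that follows it is the last one of H2afy-204.

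Intron 9 had 253.5 observed against 80.5 expected reads in DMSO, 3.15-fold more (log2 ratio 1.65 in the authors' deposited table, adjusted p = 2.12e-11). In KH-CB19 at 0 h the authors' deposited table gave it 218.0 against 71.5 reads, 3.05-fold more (log2 ratio 1.61, adjusted p = 8.44e-10). Intron 10 carried nearly the same values, as its reads are nearly the same reads. The authors' deposited table gave intron 10 259.0 observed and 82.5 expected reads in DMSO (log2 ratio 1.65, adjusted p = 1.78e-11), and 231.0 and 73.0 in KH-CB19 (log2 ratio 1.66, adjusted p = 1.25e-10).

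In each 0 h group 2 of the 4 H2afy introns were thus above expectation and 1 was below, at adjusted p below 0.05. Of all introns with a value, 28.2% were above and 10.9% below in DMSO, and 27.6% above and 8.93% below in KH-CB19. The detained class may rest on these same ratios, so the excess of introns 9 and 10 is part of how they were classed and is read no further. Among detained introns their excess was below the middle: 39.4% of 3453 detained introns had a lower ratio than intron 9 in DMSO, where the median log2 ratio of the class was 1.83. The contrast within the gene was large, with 5.53 log2 units between introns 9 and 2 in DMSO. Of 2288 genes with a detained intron and at least 2 values, 94.8% spanned less, and the median span was 2.77. A span tends to grow with the number of introns, and the genes were not matched for this number. The span of H2afy also rests on a mean of 13.5 observed reads in intron 2. Of the 2427 genes with a detained intron, 958 (39.5%) also had another intron called below expectation in DMSO, and 30 (1.24%), H2afy among them, had one at or under the ratio of intron 2.

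**Figure D2:**
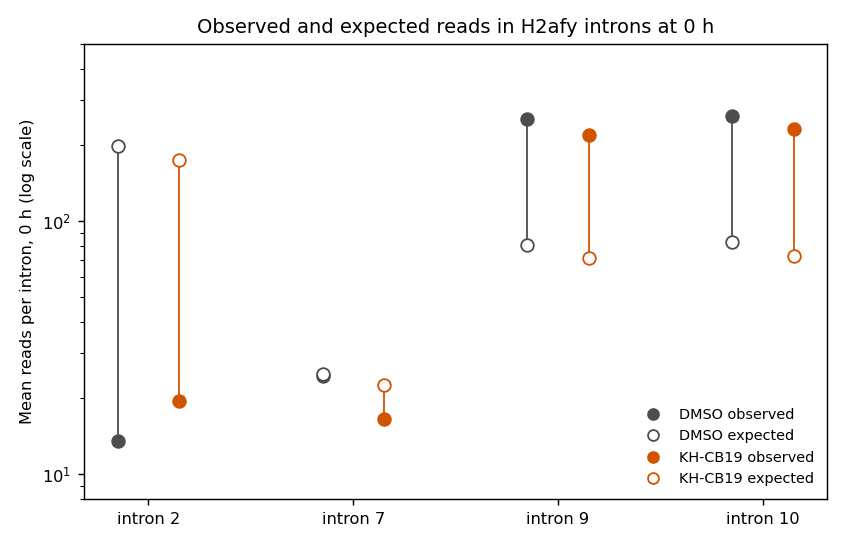
Mean observed (filled) and expected (open) reads in each H2afy intron at 0 h on a log axis, in DMSO (grey) and KH-CB19 (orange); each point is the authors' mean of 2 libraries and has no error bar. Observed reads lie far below expected in intron 2, near expected in intron 7 and about 3-fold above expected in the overlapping introns 9 and 10 (3.15 and 3.14 in DMSO).

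Per kilobase of intron, observed reads in DMSO at 0 h were 0.58 in intron 2, 50.8 in intron 7, 63.9 in intron 9 and 62.4 in intron 10. The density of intron 9 was thus 110-fold that of intron 2. The expected densities in DMSO were 51.9 reads per kilobase for intron 7, 20.3 for intron 9 and 8.48 for intron 2, so the authors' expectation did not rise in proportion to length within this gene. In KH-CB19 at 0 h the observed densities were 0.838, 34.2, 55.0 and 55.7 reads per kilobase for introns 2, 7, 9 and 10.

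Intron 9 lies wholly inside intron 10, so the reads that intron 10 adds are those of 184 bases, the 91-base macroH2A1.1 exon and the 93 bases ahead of it. In DMSO at 0 h this stretch added 5.5 of 259.0 reads, so that 97.9% of the reads of intron 10 were those of intron 9. In KH-CB19 at 0 h it added 13.0 of 231.0 reads, and at 2 h it added 5.93 normalised reads in DMSO and 13.3 in KH-CB19. The stretch held 29.9 reads per kilobase in DMSO at 0 h and 70.7 in KH-CB19 at 0 h, numbers that rest on few reads. Spliced macroH2A1.1 RNA also contains the 91-base exon, and the sources used here do not say whether reads of it were counted in intron 10.

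Between treatments at 0 h, when KH-CB19 had just been added, the ratios of the detained H2afy introns had counting intervals that included 0. Observed reads are unscaled there, so ratios of KH-CB19 to DMSO were centred on the median of the 18080 introns with both values, which was −0.32 on the log2 scale. The centred log2 ratio was 0.10 for intron 9 (95% interval −0.08 to 0.29) and 0.16 for intron 10 (−0.03 to 0.34). These intervals are exact binomial (Clopper-Pearson) ones on the reads of both libraries of a group and cover counting error only, since the reads are not independent molecules and cultures also vary. Intron 7 had a centred log2 ratio of −0.25 (95% interval −0.93 to 0.42). Intron 2 had one of 0.85 (95% interval 0.11 to 1.62), from 27 reads in DMSO and 39 in KH-CB19, and 99.2% of introns had a lower ratio. No test between cultures could be made on these means.

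After 2 h, both detained introns of H2afy held more reads in KH-CB19 than in DMSO. The normalised mean of intron 9 was 191 reads under DMSO and 362 under KH-CB19, 1.89-fold more (log2 ratio 0.92 in the authors' deposited table, adjusted p = 0.000354). For intron 10 the authors' deposited table gave 197 and 376 normalised reads, 1.91-fold more (log2 ratio 0.93, adjusted p = 0.000266). The counting error alone put the log2 ratio of intron 9 between 0.74 and 1.11 (95%, exact binomial), and that of intron 10 between 0.75 and 1.11. These intervals treat normalised means as if they were read counts, so they are approximate. The same holds for the intervals of the 2 h to 0 h ratios below. As the introns share nearly all reads, the rise is 1 change measured on overlapping intervals and not a pair of separate changes. Introns 2 and 7 were not classed as detained and have no 2 h value, so whether the rise is limited to this stretch of the gene, or goes with the amount of H2afy transcript, was not tested.

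H2afy therefore had 2 of 2 tested introns higher at 2 h, where 5.47% of the 3454 detained introns were higher at adjusted p below 0.05; the gene was proposed for this call, and nothing is read from the share. Of the 189 introns that rose, 60 had a smaller fold than intron 9, and the median rise was 2.15-fold. Reads were plentiful: 88.5% of detained introns had fewer reads than intron 9 in DMSO at 2 h, where the median was 57.9. By adjusted p in the authors' deposited table, 52 of the introns that rose had a smaller value than intron 10. The authors gave both introns the response class "Less", a word that the sources used here do not define. Among the other introns whose 2 h adjusted p is printed here, those that rose also had "Less". Those that fell had "More", and those that did not pass had "NC". The table held 16 pairs of overlapping introns within a gene. In 2 of these pairs both introns were detained, introns 9 and 10 of H2afy and introns 56 and 57 of Dnajc13, and of these pairs both introns passed the 2 h threshold in H2afy and not in Dnajc13.

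**Figure D3:**
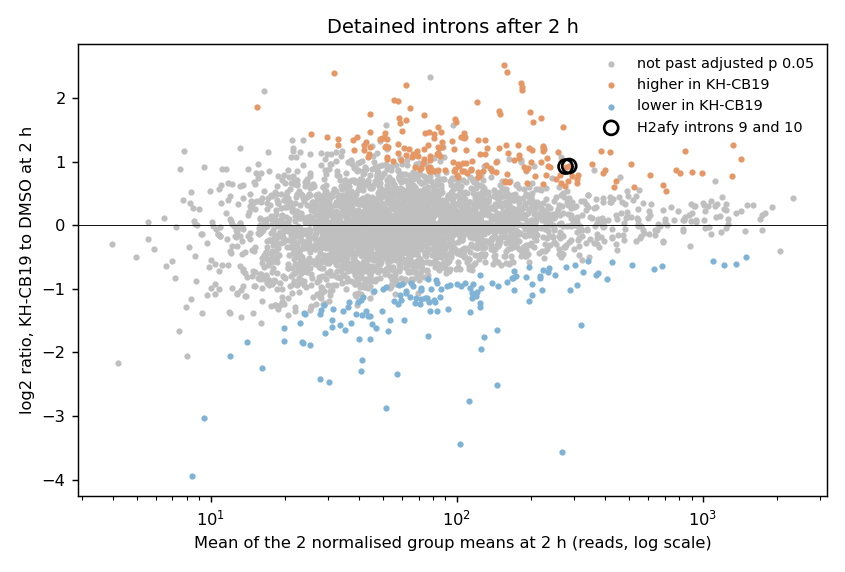
Log2 ratio of KH-CB19 to DMSO at 2 h against the mean of both normalised group means (log axis) for 3454 detained introns, coloured by the authors' adjusted p below 0.05 and direction. The circled introns 9 and 10 of H2afy lie together at log2 ratios of 0.92 and 0.93, toward the well-covered side of the introns that rose.

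The change from 0 h to 2 h was then set out within each treatment, again centred, on the median of the detained introns, because 0 h means are unscaled and 2 h means are normalised. In DMSO, intron 9 had a centred log2 ratio of −0.09 (95% interval for counting error −0.28 to 0.10), and 37.2% of 3453 detained introns had a lower one. In KH-CB19 its centred log2 ratio was 0.72 (0.54 to 0.89), 1.64-fold above the median intron, and 89.3% of 3423 detained introns had a lower one. For intron 10 the values were −0.08 in DMSO (−0.27 to 0.12) and 0.68 in KH-CB19 (0.51 to 0.85). These ratios use the same 2 h means for which the gene was chosen, so they and their counting intervals are a description, with no test and no separate support for the comparison above.

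**Figure D4:**
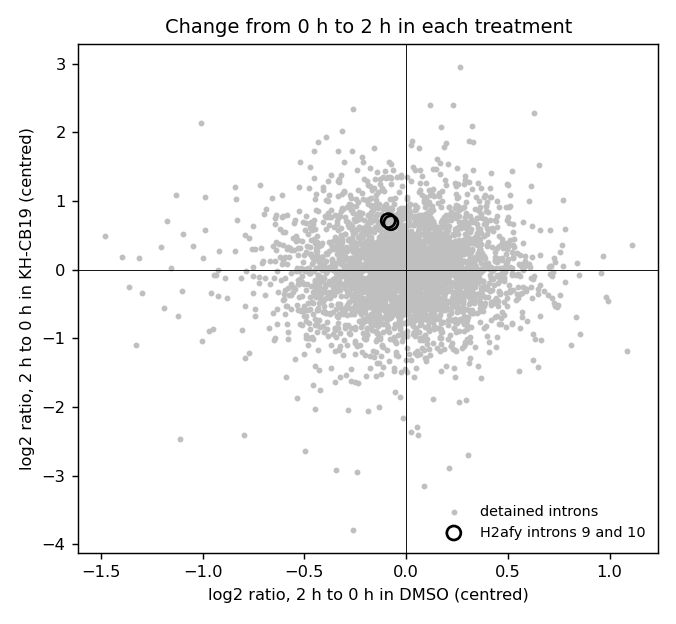
Centred log2 ratio of 2 h to 0 h in DMSO (horizontal) and in KH-CB19 (vertical) for the detained introns with all 4 values. The circled H2afy introns lie close to 0 on the DMSO axis (−0.09 and −0.08) and at 0.72 and 0.68 on the KH-CB19 axis.

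Introns with the pattern most like intron 10 were found by Euclidean distance over 3 of the authors' log2 ratios, those of observed to expected reads in DMSO and in KH-CB19 at 0 h and that of KH-CB19 to DMSO at 2 h, among 2411 detained introns of other genes with at least 50 observed reads. The nearest was intron 15 of Ctnnal1, a relative of alpha-catenin, for which the authors' deposited table gave 1.72, 1.67 and 0.89 (distance 0.0800). Intron 11 of Eif2a, a translation initiation factor, had 1.69, 1.59 and 0.85 (distance 0.115), and intron 9 of D730040F13Rik had 1.76, 1.66 and 0.97 (distance 0.121) in the authors' deposited table. Intron 17 of Prmt3, an arginine methyltransferase, and intron 25 of Kdm3a, a histone H3 lysine 9 demethylase, came next, at distances of 0.125 and 0.132. Their 2 h log2 ratios of 0.86 and 0.86 did not pass (adjusted p = 0.132 and 0.381 in the authors' deposited table), whereas those of Ctnnal1, Eif2a and D730040F13Rik did (adjusted p = 0.00569, 0.0117 and 0.00451). Whether these introns differ from those of H2afy was not tested.

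Lists of genes related to histone variants, ADP-ribose or macroH2A1 splicing were chosen with earlier results of these data known. Whether the listed genes act with macroH2A1 in these cells was not tested. Of 14 genes for histone variants and linker histones, 6 had an intron in the table, with 12 introns and 0 detained ones. The other listed genes had no intron in the table and so could have no 2 h value. Nothing is read from H2afy having 2 h values where these 6 genes had none. The paralogue H2afy2, which encodes macroH2A2, had 1 intron in the table: intron 7 (chr10:61204058-61209380 on mm9) held 37.0 observed and 10.5 expected reads in DMSO (log2 ratio 1.82 in the authors' deposited table, adjusted p = 0.00106). In KH-CB19 the authors' deposited table gave H2afy2 intron 7 27.5 and 8.0 reads (log2 ratio 1.78, adjusted p = 0.00674). Its excess in DMSO was 3.52-fold, above the 3.15-fold of H2afy intron 9 by value and on far fewer reads, and it was not classed as detained. It was the 1 intron of the 12 above expectation in DMSO at adjusted p below 0.05, and 3 were below, where 28.2% of all introns with a value were above and 10.9% below.

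Among chaperones and remodellers that place histone variants, 16 of 27 genes had detained introns, 31 in all, of which 1 rose and 3 fell at 2 h. Of all detained introns 5.47% rose and 4.17% fell, and the median log2 ratio was −0.15 in the list and 0.00 over all detained introns. Each call was of 1 intron, and Nap1l1, Ep400 and Nasp also had detained introns without a call. Intron 9 of Nap1l1, a chaperone of H2A and H2B, rose 2.33-fold (135 to 315 normalised reads, adjusted p = 1.16e-05 in the authors' deposited table). The falls in the authors' deposited table were in Ep400 intron 47 (log2 ratio −1.43, adjusted p = 0.00342), a remodeller that exchanges H2A.Z, in Rbbp4 intron 4 (−0.99, adjusted p = 0.00365), a histone-binding subunit of several complexes, and in Nasp intron 13 (−0.62, adjusted p = 0.00694), a chaperone of H3 and linker histones.

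For enzymes and readers of ADP-ribose, the ligand of the macroH2A1.1 macro domain, 4 of 15 genes had 7 detained introns, of which 0 rose and 0 fell (median log2 ratio −0.06). With 5.47% of all detained introns rising and 4.17% falling, so few introns with no call are near that background. The smallest adjusted p was that of Parp1 intron 34 (log2 ratio −0.68 in the authors' deposited table, adjusted p = 0.342); Parp1 makes poly(ADP-ribose). Splicing factors with a published link to the choice between the macroH2A1 exons, the Mbnl, Rbfox2 and Qk proteins and the helicases Ddx5 and Ddx17, were the last list. Of these 7 genes 3 had detained introns, 5 in all, and 0 rose and 0 fell (median log2 ratio −0.18), again near the background of 5.47% and 4.17%. Intron 19 of Ddx5 had the smallest adjusted p, with 2350 normalised reads in DMSO and 1779 in KH-CB19 (log2 ratio −0.40 in the authors' deposited table, adjusted p = 0.12).

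Over the whole table, observed 0 h means summed to 1286589 reads over 21568 introns in DMSO and 1002850 over 18740 introns in KH-CB19. The 0 h sums thus cover unlike sets of introns. Normalised 2 h means of the 3454 detained introns summed to 369104 in DMSO and 392295 in KH-CB19. RNA integrity numbers ran from 8.8 to 9.4 over the 8 libraries, with 9.3 in both DMSO libraries and 8.8 and 9.1 in the KH-CB19 libraries at 2 h; their part in the result was not tested. Of the marker genes, 9 of 10 for embryonic stem cells, 0 of 10 for germ layers and trophoblast and 1 of 7 for fibroblasts (Fn1) had an intron in the table, which holds introns and so does not give the level of the genes themselves.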

How the data were processed

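Polyadenylated RNA of v6.5 cells was sequenced in 4 groups of 2 libraries. The authors named DESeq, Cufflinks 2.1.1, bedtools 2.17.0, SAMtools 0.1.19, TopHat2 2.0.9 and Bowtie 1.0.0, with the build mm9, per the submitters' processing notes; the settings are not in the sources used here. Per the file headers, the authors gave observed and expected mean counts at 0 h (all multiples of 0.5, so unscaled), log2 ratios and adjusted p-values. At 2 h the authors deposited a normalised mean count per group (a signal that is not whole). The adjusted p-values are taken to be from DESeq, which the authors named. The set of introns over which they were adjusted is not in the sources used here.

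The members and lists were chosen with earlier results of these data known. All H2afy introns were named, and per list up to 4 introns past 0.05 at 2 h by smallest adjusted p, or else the 1 with the smallest. Densities, centred ratios, exact binomial intervals and distances were computed with Python 3.11.15, pandas 2.3.3 and SciPy 1.17.1, with code tested on simulated data. Table starts count from 0 and are printed from 1. Alternatives changed pseudocounts (0.1, 0.5, 1 or 10), scaling, the threshold (0.01), the read minimum (50) and the counting of overlapping introns.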

Additional observations from a re-analysis of the deposited data

How the results depend on the processing

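Of 64 alternative values, 57 kept their direction and stayed within counting error, or for counts within 1.5 times the reported count. These are not 64 separate checks. A count of 0 cannot move at a stricter threshold, and introns 9 and 10 share nearly all reads. Several settings could hardly move the 2 h result for which the gene was chosen. Centring subtracted a median log2 ratio of −0.0016, and small pseudocounts met 191 (DMSO) and 362 (KH-CB19) normalised reads in intron 9. The authors' 2 h adjusted p-values of 0.000354 (intron 9) and 0.000266 (intron 10) were already below 0.01. The share of 57 is therefore not read as support for that rise. The 2 h log2 ratio of intron 9 ran from 0.83 (scaled by the sum over detained introns) to 0.92, and that of intron 10 from 0.84 to 0.93. With a pseudocount of 10 the ratio of observed to expected reads in intron 2 shrank to −3.14 in DMSO and −2.64 in KH-CB19, and with at least 50 observed reads intron 2 dropped out, leaving 0 H2afy introns below expectation in either group. With overlapping introns counted as 1, 1 H2afy intron was higher at 2 h in place of 2. At a threshold of 0.01 both H2afy introns passed; over all detained introns 124 in place of 189 rose and 93 in place of 144 fell, a threshold added for these counts after the data were seen, as was sum scaling of the 2 h to 0 h ratios (0.62 for intron 9 and 0.59 for intron 10 in KH-CB19). No paired analysis was possible because the columns are group means that carry no replicate number, and for the same reason no library could be left out in turn. Depth limits intron 2, with 27 and 39 reads, and the 184 bases by which intron 10 exceeds intron 9.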
